A study of Mus musculus with 9 samples.

Results

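The liver chemokines described here were 10 genes, Ccl2, Ccl5, Ccl6, Ccl9, Ccl24, Cxcl1, Cxcl9, Cxcl12, Cxcl16 and Cx3cl1, taken by symbol from the 24411 genes of a table of read counts of whole mouse liver. Of the 10, 9 passed the filter on low counts and were tested together with all other genes, 11199 in total. Ccl24 was under the filter's minimum for the depth of the library in all 9 libraries and is given by its values.

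RNA came from 9 livers, 3 in each of 3 genotypes, and every mouse carried floxed Atg7 on both alleles (Atg7flox/flox). The cont. mice had no Cre. The Atg7-KO mice (Atg7flox/flox;Alb-Cre) also carried Cre under the albumin promoter, which is active mainly in hepatocytes. Atg7 is required to form autophagosomes, and its loss was not measured by cell type here. The Atg7-KO;p62-S351A mice, called S351A below, carried the same alleles and Cre with a knock-in in p62, the selective autophagy adaptor encoded by Sqstm1, that replaced a serine by alanine in every cell of the body (p62S351A/p62S351A). The mice were of the C57BL/6 background and 3 months old. For S351A replicates 2 and 3 the genotype entry gives another position in p62 than the title, and the titles were followed. By Xist and Y-linked genes, cont. held 2 males and 1 female, and Atg7-KO and S351A held 1 male and 2 females each.

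Each S351A library was smaller than every library of the other groups, at 713841 to 792372 counts against 1875325 to 15426575 in cont. and 1945483 to 3675058 in Atg7-KO. Depth and the p62 allele therefore cannot be told apart. Levels are CPM, the counts relative to library size after scaling by the trimmed mean of M values (TMM). A level of 3 counts, used as the floor, was 0.269 to 1.91 CPM in cont. livers, 0.696 to 1.37 CPM in Atg7-KO and 3.45 to 3.73 CPM in S351A. Floors and counting intervals cover counting error only, since reads are not independent molecules. Atg7 itself was lower in both groups with Cre than in cont. (edgeR log2 fold changes -0.74 and -1.07, adjusted p 0.00758 and 0.00319). With total library size both calls were lost (-0.21 and -0.59, adjusted p 0.829 and 0.0614), and without the 20 most abundant genes that in Atg7-KO was lost (-0.31, adjusted p 0.208). The table gives 1 value per gene, so that the deleted exons could not be read apart.

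Chemokines are small secreted proteins that bind receptors coupled to G proteins on leukocytes and direct their migration along a gradient. The families are named for the spacing of cysteines near the amino terminus. CC ligands mainly attract monocytes, T cells and eosinophils, CXC ligands attract neutrophils or lymphocytes, and Cxcl16 and Cx3cl1 are made as membrane proteins with a chemokine domain on a mucin stalk, from which proteases can release them. In liver, Cxcl12 is made by endothelial and stromal cells, whereas Ccl2, Cxcl1 and Cxcl9 can be induced by inflammatory signals in hepatocytes, macrophages, endothelial cells and stellate cells.

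Of these genes, Ccl5, Ccl9 and Ccl6 lie close together on the mouse genome, and the others lie farther apart (mm10 coordinates of GENCODE M21). On chromosome 11, Ccl2 spans chr11:82035571-82037453 on the + strand, and Ccl5 (chr11:83525778-83530518), Ccl9 (chr11:83572919-83578636) and Ccl6 (chr11:83587882-83593087) follow each other on the - strand. Cxcl16 is on the same chromosome at chr11:70453983-70459984 on the - strand. On chromosome 5 lie Cxcl1 (chr5:90891241-90893115, + strand), Cxcl9 (chr5:92321347-92328079, - strand) and Ccl24 (chr5:135569937-135573049, - strand). Cxcl12 is at chr6:117168535-117181367 and Cx3cl1 at chr8:94772009-94782427, both on the + strand. Ccl2, Ccl6 and Cxcl16 overlap genes on the opposite strand (Gm17268, E230016K23Rik and Zmynd15), and because the strand setting of the counting was not stated, reads over those stretches could belong to either gene.

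The RefSeq promoter set (GRCm38.p6) held 6 of the 10 genes, and the 250 bases before the RefSeq start site are printed for all 6. They are the windows of 5 genes called higher in Atg7-KO (Cxcl1, Ccl9, Cxcl9, Ccl6 and Cx3cl1) and of Cxcl12, which was called lower. Matches are listed below by motif, each with its share over all promoters, and were not compared between these genes. Sequences run 5' to 3' on the gene's strand, and capitals mark every match to the motifs named below.
Cxcl1 (chr5:90890995-90891244, + strand): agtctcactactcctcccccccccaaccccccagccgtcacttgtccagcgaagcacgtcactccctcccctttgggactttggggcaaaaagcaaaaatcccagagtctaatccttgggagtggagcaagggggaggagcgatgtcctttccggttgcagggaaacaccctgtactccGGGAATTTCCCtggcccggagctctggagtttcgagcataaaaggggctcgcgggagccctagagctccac
Ccl9 (chr11:83578637-83578886, - strand): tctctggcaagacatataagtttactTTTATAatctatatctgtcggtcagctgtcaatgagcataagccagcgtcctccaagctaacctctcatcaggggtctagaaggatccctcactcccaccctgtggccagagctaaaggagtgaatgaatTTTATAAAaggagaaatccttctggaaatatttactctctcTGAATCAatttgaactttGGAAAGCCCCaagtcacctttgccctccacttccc
Cxcl9 (chr5:92328080-92328329, - strand): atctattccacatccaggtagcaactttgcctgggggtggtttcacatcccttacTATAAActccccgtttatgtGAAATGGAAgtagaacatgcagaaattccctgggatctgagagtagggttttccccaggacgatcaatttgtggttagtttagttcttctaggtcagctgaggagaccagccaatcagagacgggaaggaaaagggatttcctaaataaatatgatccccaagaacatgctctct
Ccl6 (chr11:83593088-83593337, - strand): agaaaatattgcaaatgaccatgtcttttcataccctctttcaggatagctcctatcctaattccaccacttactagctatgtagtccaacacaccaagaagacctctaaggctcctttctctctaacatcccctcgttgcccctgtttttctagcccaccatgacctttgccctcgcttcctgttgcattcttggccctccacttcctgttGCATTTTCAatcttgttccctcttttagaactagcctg
Cx3cl1 (chr8:94771930-94772179, + strand): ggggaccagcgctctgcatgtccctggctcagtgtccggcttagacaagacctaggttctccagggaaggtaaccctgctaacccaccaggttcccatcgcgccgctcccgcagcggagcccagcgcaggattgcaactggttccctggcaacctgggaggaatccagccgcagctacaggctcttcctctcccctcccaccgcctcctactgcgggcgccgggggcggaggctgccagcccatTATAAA
Cxcl12 (chr6:117168285-117168534, + strand): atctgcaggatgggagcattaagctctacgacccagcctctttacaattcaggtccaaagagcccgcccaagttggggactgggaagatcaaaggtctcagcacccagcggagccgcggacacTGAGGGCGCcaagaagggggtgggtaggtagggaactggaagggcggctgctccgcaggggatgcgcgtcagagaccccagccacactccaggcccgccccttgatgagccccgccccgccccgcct

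Both strands were searched, with positions counted back from the start site. The NF-kB motif, which has 10 letters, was found in Cxcl1 from -71 to -62 and, overlapping it on the opposite strand, from -70 to -61, and in Ccl9 from -35 to -26. It was present in 7.25% of the 32851 promoters of the set. The AP-1 motif TGANTCA, present in 6.75% of promoters, was found in Ccl9 from -53 to -47. It matched there on both strands, since the pattern, though not the stretch itself, reads the same on each. The core of the interferon-stimulated response element, GAAANNGAA, present in 7.13%, was found in Cxcl9 from -175 to -167. The STAT motif TTCNNNGAA, present in 7.02%, had no match in the 6 windows. TGANNNNGC, a loose pattern for the core of the antioxidant response element that NRF2 binds, was present in 35.2% of promoters. It was found in Cxcl12 from -127 to -119 and in Ccl6 from -38 to -30. A match to so loose a pattern does not mark an element bound by NRF2. TATAAA, present in 12.4%, was found in Ccl9, in Cxcl9 and in Cx3cl1, where it ends at the last base before the start site, and the 2 downstream matches in Ccl9 overlap each other. A match is a string of letters and not a measured binding site.

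How loss of autophagy in hepatocytes changed the liver transcriptome was addressed by comparing Atg7-KO with cont. Of the 9 chemokines tested, 8 were called higher and 1, Cxcl12, was called lower in Atg7-KO (edgeR quasi-likelihood test, Benjamini-Hochberg adjusted p under 0.05 and a fold change over 1.5). Over all 11199 genes the same calls were made for 19.9% higher and 18.1% lower. These shares depend on the scaling, at 38.3% and 7.15% with total library size and 33.7% and 8.72% without the 20 most abundant genes, under both of which the 9 chemokines kept the counts of 8 higher and 1 lower. In each of the 8 genes every Atg7-KO library lay above every cont. library, which held for 26.7% of all genes tested. Ccl2, Ccl5, Ccl6 and Cx3cl1 were under the filter's minimum in all 3 cont. libraries and entered the test only through the groups with Cre, so the count describes these genes and is no test of them as a set. The median log2 fold change of the 9 genes was 1.93, against -0.03 over all genes, and with Ccl24 in a fit with no filter it was 1.79, against 0.08. In bulk liver, more cells of a type and more RNA per cell cannot be told apart.

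**Figure D1:**
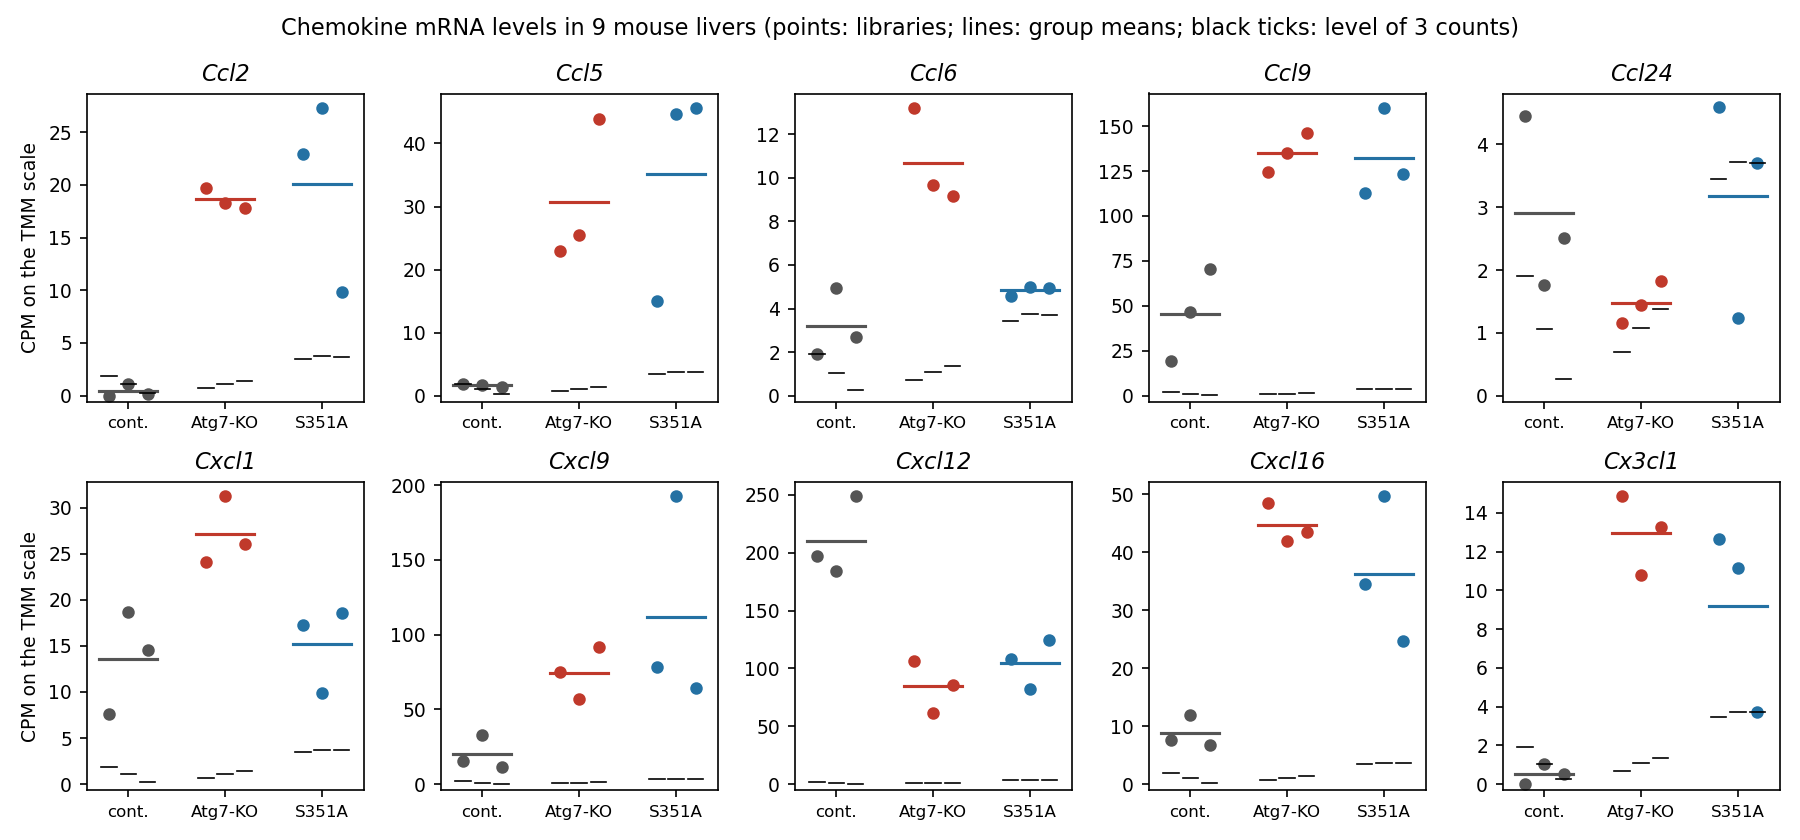
Level of each of the 10 chemokines (CPM on the TMM scale, linear axes that differ between panels) in the 3 cont., 3 Atg7-KO and 3 S351A livers. Points are libraries, lines are group means and black ticks show the level of 3 counts in each library. In 8 panels every Atg7-KO point lies above every cont. point, in Cxcl12 every one lies below, and in Ccl24 the points overlap.

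Among the CC ligands, Ccl2, which draws monocytes through Ccr2, was at 0, 1.06 and 0.179 CPM in the cont. libraries, at 19.7, 18.3 and 17.8 CPM in Atg7-KO and at 23.0, 27.3 and 9.87 CPM in S351A. It was close to absent in cont. and detected in every liver with Cre, and Atg7-KO and S351A overlapped. The values rest on summed counts of 5 (cont.), 175 (Atg7-KO) and 50 (S351A). The ratio of summed counts per scaled depth was 58.7 for Atg7-KO against cont. (95% exact interval 24.7 to 183), and by edgeR the log2 fold change was 5.62 with an SE of 0.57 (adjusted p 2.19e-05). With so few cont. counts its size depended on single libraries, at 6.57 when cont. replicate 2 was left out, 4.67 when cont. replicate 3 was, and 7.05 with libraries thinned to the smallest total, and it was called in each.

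Ccl5, a ligand of Ccr1 and Ccr3 known as a product of T and NK cells, was at 1.91, 1.76 and 1.34 CPM in cont., at 23.0, 25.5 and 43.9 CPM in Atg7-KO and at 14.9, 44.7 and 45.7 CPM in S351A. All cont. livers were low and all livers with Cre were higher, with Atg7-KO replicate 3 and S351A replicates 2 and 3 well above the others. The rise in Atg7-KO was 19.4-fold (log2 fold change 4.28, SE 0.47, edgeR adjusted p 3.38e-05). Of 11 T and NK cell markers in the table, only Cd8a was tested, and it rose as well (log2 fold change 4.22), having passed the filter only through the groups with Cre. Their summed level was 6.81 to 15.8 CPM in cont. livers, 19.7 to 30.2 CPM in Atg7-KO and 23.6 to 29.9 CPM in S351A, none was at 0 in all libraries, and their part in the rise of Ccl5 was not tested.

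Ccl9 and Ccl6 are neighbouring mouse genes for ligands of Ccr1 that are made by myeloid cells. Ccl9 was at 19.1, 46.5 and 70.2 CPM in cont., at 125, 135 and 146 CPM in Atg7-KO and 113, 160 and 123 CPM in S351A. The cont. livers spread over a wide range but stayed below all livers with Cre. The rise in Atg7-KO was 2.90-fold (log2 fold change 1.53, SE 0.35, edgeR adjusted p 0.00407). Ccl6 was at 1.91, 4.93 and 2.69 CPM in cont., at 13.2, 9.69 and 9.15 CPM in Atg7-KO and at 4.60, 4.97 and 4.94 CPM in S351A, where each value rests on 4 counts. All Atg7-KO libraries were above those of both other groups, which overlapped, and the rise against cont. was 3.37-fold (log2 fold change 1.75, SE 0.36, edgeR adjusted p 0.00239).

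Ccl24, an eosinophil attractant that acts through Ccr3, was at 4.45, 1.76 and 2.51 CPM in cont., at 1.16, 1.44 and 1.83 CPM in Atg7-KO and at 4.60, 1.24 and 3.70 CPM in S351A. The groups overlapped and no library of Atg7-KO or S351A held more than 5 counts. In a fit with no filter the log2 fold change of Atg7-KO against cont. was -0.96 (95% interval -2.30 to 0.38, edgeR adjusted p 0.317), so that no change was detected, and the interval leaves more room for a fall than for a rise. Of 7 eosinophil markers, Epx, Prg2, Ear1 and Ear6 were at 0 in all 9 libraries. Only Ear2 was tested, and it was not called (log2 fold change 1.56 in Atg7-KO, edgeR adjusted p 0.0623).

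Among the CXC ligands, Cxcl12, which retains cells that bear Cxcr4, was at 197, 184 and 249 CPM in cont., at 106, 61.7 and 86.0 CPM in Atg7-KO and at 108, 82.0 and 125 CPM in S351A. It was the only one of the 10 with a higher level in every cont. liver than in every liver with Cre. It fell 2.48-fold in Atg7-KO (log2 fold change -1.31, SE 0.25, edgeR adjusted p 0.00141). Of 9 endothelial markers, Stab2, Clec4g and Tek were also called lower and Lyve1 higher in Atg7-KO, where the 3 lower calls were lost with total library size or without the 20 most abundant genes. Over all genes 18.1% were called lower and 19.9% higher, so that 3 and 1 of 9 markers do not set this list apart. The summed level of the 9 was 231 to 419 CPM in cont. livers, 312 to 385 CPM in Atg7-KO and 317 to 326 CPM in S351A. Of 10 stellate cell and fibroblast markers, 6 were called higher and none lower, and 1 of the 10, Rgs5, was under the filter's minimum in every cont. library. The part of these cells in the fall of Cxcl12 was not tested.

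Cxcl1, a neutrophil attractant that binds Cxcr2, was at 7.63, 18.7 and 14.5 CPM in cont., at 24.1, 31.2 and 26.1 CPM in Atg7-KO and at 17.2, 9.93 and 18.5 CPM in S351A. Atg7-KO stood above both other groups, which overlapped. Its rise in Atg7-KO was the smallest of the 8, at 1.92-fold (log2 fold change 0.94, SE 0.29, edgeR adjusted p 0.0209), and it lost its call without Atg7-KO replicate 2 (0.83, adjusted p 0.0912) or 3 (0.96, adjusted p 0.0568). Of 7 neutrophil markers in the table, only Csf3r was tested, having passed the filter only through the groups with Cre, and it was called higher (log2 fold change 1.41). The summed level of the 7 was 7.53 to 9.86 CPM in cont. livers, 16.5 to 25.6 CPM in Atg7-KO and 13.6 to 18.6 CPM in S351A, and their part in the level of Cxcl1 was not tested.

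Cxcl9, a ligand of Cxcr3 that interferon gamma induces, was at 15.3, 32.7 and 11.6 CPM in cont., at 75.2, 57.1 and 91.5 CPM in Atg7-KO and at 78.1, 192 and 64.2 CPM in S351A. All livers with Cre were above all cont. livers, and S351A replicate 2 stood far above the other 8 livers. The rise in Atg7-KO was 3.81-fold (log2 fold change 1.93, SE 0.45, edgeR adjusted p 0.00466). The gene of interferon gamma, Ifng, gave 4 counts in the cont. group, 2 in Atg7-KO and 0 in S351A, which is at the floor and too few to compare. Both receptor subunits, Ifngr1 and Ifngr2, were called higher in Atg7-KO (log2 fold changes 1.41 and 1.97).

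The membrane-bound ligands rose together. Cxcl16, which binds Cxcr6 on T and NKT cells, was at 7.63, 11.97 and 6.81 CPM in cont., at 48.5, 42.0 and 43.5 CPM in Atg7-KO and at 34.5, 49.7 and 24.7 CPM in S351A. Its Atg7-KO values lay close to each other and none came near cont. In 4 of the 9 libraries its count was not whole before rounding, as happens where reads are shared between genes. The rise was 5.19-fold (log2 fold change 2.38, SE 0.28, edgeR adjusted p 5.95e-05), and with libraries thinned to the smallest total the log2 fold change was 1.74 (adjusted p 0.00293).

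Cx3cl1, the ligand of Cx3cr1 on monocytes and macrophages, was at 0, 1.06 and 0.538 CPM in cont., at 14.8, 10.8 and 13.3 CPM in Atg7-KO and at 12.6, 11.2 and 3.70 CPM in S351A. It was near the floor in cont. and above it in every Atg7-KO liver. It had 9 counts in cont. and 123 in Atg7-KO, a ratio of 22.9 per scaled depth (95% exact interval 11.7 to 51.3), and by edgeR the log2 fold change was 4.39 with an SE of 0.53 (adjusted p 6.64e-05). S351A replicate 3, with 3 counts, lay at the floor of its library.

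Levels per kilobase of exon can be compared between genes only roughly. The lengths are unions of all annotated exons (8176 bases for Cxcl12, 960 for Ccl5) and may exceed the transcripts made, and the shares and orders depend on them. On this scale the 10 chemokines summed to 63.6 ± 13.1 CPM per kb in the cont. livers (SD, n = 3 in every group), to 168 ± 18.4 with loss of Atg7 and to 175 ± 44.3 with the S351A allele added. Cxcl12 made up 41.3% ± 8.71 of this sum in cont. and ranked first, at 25.7 CPM per kb, although its range overlapped that of Ccl9. In Atg7-KO it made up 6.19% ± 1.65 and in S351A 7.81% ± 2.91. The total was 48.5 to 72.5 CPM per kb in single cont. livers and 142 to 225 in those with Cre, without overlap, and Cxcl12 no longer led it.

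The order of levels per kb in cont. was Cxcl12, Ccl9, Cxcl1, Cxcl9, Cxcl16, Ccl24, Ccl6, Ccl5, Ccl2 and Cx3cl1, and the only neighbours in it whose ranges did not overlap were Ccl5 and Ccl2. In Atg7-KO the order was Ccl9, Ccl5, Cxcl9, Ccl2, Cxcl16, Cxcl1, Cxcl12, Ccl6, Cx3cl1 and Ccl24. There the first 3 overlapped each neighbour, Cxcl9 and Ccl2 did not, Ccl2 to Cxcl12 overlapped in turn, and from Cxcl12 on no neighbours did. In S351A the order was Ccl9, Cxcl9, Ccl5, Ccl2, Cxcl12, Cxcl16, Cxcl1, Ccl6, Ccl24 and Cx3cl1, and only Cxcl1 and Ccl6 did not overlap. Ccl5 moved from 1.74 ± 0.304 CPM per kb in cont. to 32.1 ± 11.9 in Atg7-KO, and Ccl2 from 0.362 ± 0.497 to 16.4 ± 0.858. The share of Ccl9 was 22.2%, 26.6% and 25.0% in cont., Atg7-KO and S351A.

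**Figure D2:**
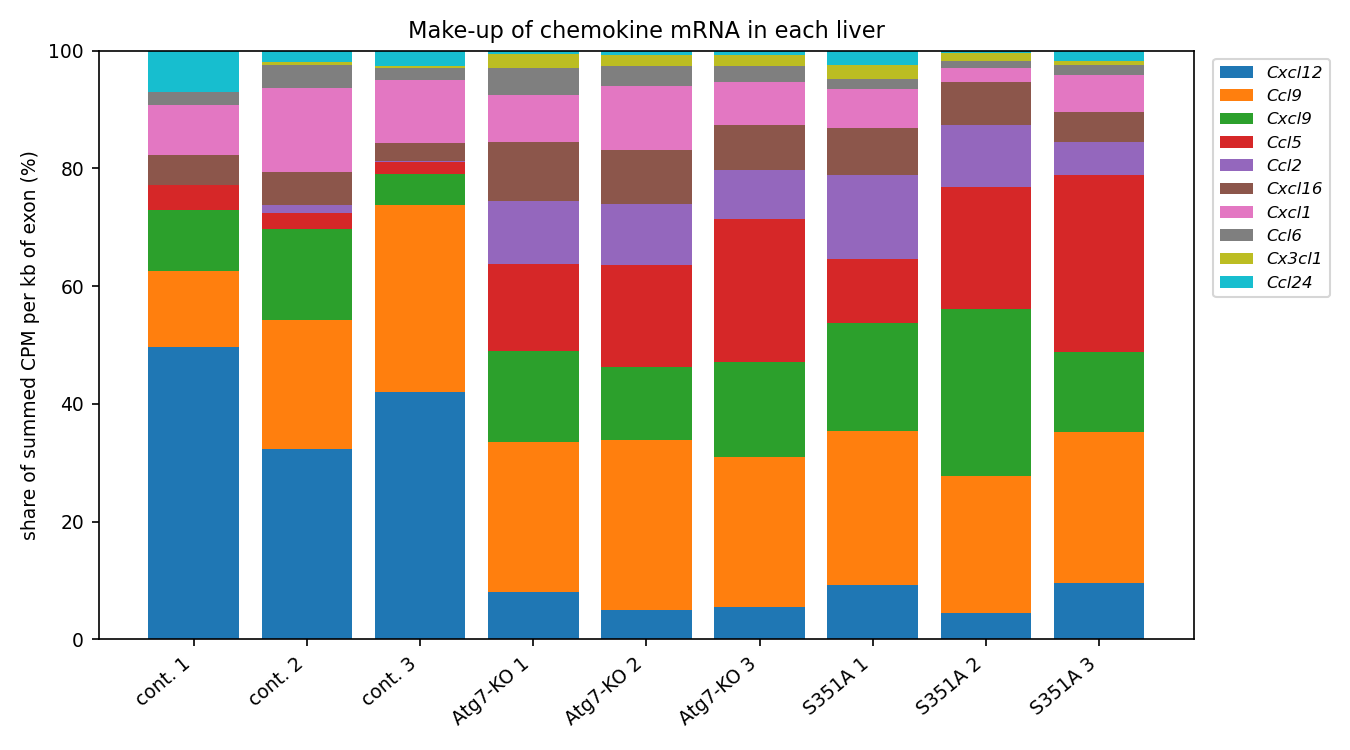
Share of each chemokine in the summed CPM per kb of exon of the 10 genes (%), as stacked bars for each of the 9 livers. Cxcl12 takes 32.3% to 49.7% of each cont. bar and 4.45% to 9.66% of each bar with Cre, and Ccl5 and Ccl2 each take a larger share of every bar with Cre than of any cont. bar.

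Whether the p62 allele changed the response to loss of Atg7 was addressed by comparing S351A with Atg7-KO. None of the 9 chemokines was called by edgeR, and over all genes only 1 was, 0.00893% of those tested. At an unadjusted p under 0.05, 2 of the 9, Ccl6 and Cxcl1, passed, against 6.60% of all genes, and both were lower in S351A, against 3.21% of all genes. DESeq2, which gave an adjusted p for 3 of the 9 (Ccl9, Cxcl9 and Cxcl12), called none. The median log2 fold change of the 9 was -0.03, against 0.01 over all genes.

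Ccl6 was lower in S351A by a log2 fold change of -1.16 (95% interval -2.11 to -0.21, unadjusted p 0.0211, edgeR adjusted p 0.696), and all 3 S351A libraries lay below all Atg7-KO libraries. With 4 counts each, those libraries were barely above the floor. Cxcl1 was lower by -0.83 (95% interval -1.56 to -0.09, unadjusted p 0.0302, edgeR adjusted p 0.737), again with all 3 libraries below. Neither passed the threshold over all genes. Of 16 macrophage markers, none was called between these groups, and their summed level was 545 to 688 CPM in Atg7-KO and 450 to 486 CPM in S351A, against 287 to 461 CPM in cont. The part of macrophages and of depth in the lower values of Ccl6 and Cxcl1 was not tested.

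For the other genes the intervals show what sizes remain possible. The log2 fold change of S351A against Atg7-KO was 0.10 for Ccl2 (95% interval -0.75 to 0.96), 0.20 for Ccl5 (-0.61 to 1.00) and -0.03 for Ccl9 (-0.78 to 0.71). It was 0.58 for Cxcl9 (-0.35 to 1.51), 0.31 for Cxcl12 (-0.24 to 0.86), -0.30 for Cxcl16 (-0.90 to 0.29) and -0.50 for Cx3cl1 (-1.47 to 0.48). Each interval includes 0 and also reaches a change of 1.5-fold in at least 1 direction, so that the data do not show these levels to be alike. The spread within S351A was wide for several genes, with an SD of 9.08 CPM for Ccl2 against 0.976 CPM in Atg7-KO, and 70.4 CPM for Cxcl9 against 17.2 CPM. It was not wider for Cxcl12 (21.5 against 22.2 CPM) or for Ccl6 (0.206 against 2.21 CPM).

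Against cont., S351A livers were called higher for Ccl2, Ccl5, Ccl9, Cxcl9, Cxcl16 and Cx3cl1 and lower for Cxcl12, 6 and 1 of the 9 genes tested. The calls over all genes were 15.6% higher and 13.0% lower, against 31.2% and 4.57% with total library size and 27.1% and 5.7% without the 20 most abundant genes. The 6 genes had no overlap with cont., as had 19.6% of all genes in that direction. This comparison shares its cont. libraries with that of Atg7-KO. The log2 fold changes were 5.73 (SE 0.61) for Ccl2, 4.48 (0.49) for Ccl5, 3.89 (0.62) for Cx3cl1, 2.51 (0.46) for Cxcl9, 2.07 (0.31) for Cxcl16, 1.5 (0.35) for Ccl9 and -1.00 (0.25) for Cxcl12, with edgeR adjusted p between 6.20e-05 and 0.0112. Ccl6 (0.59, SE 0.49, adjusted p 0.392) and Cxcl1 (0.11, SE 0.35, adjusted p 0.840) were not called. The change of Ccl2 was 6.67 when cont. replicate 2 was left out and 4.77 when cont. replicate 3 was, that of Cxcl9 was 1.84 without S351A replicate 2, and these stayed called. The call of Cxcl12 was lost under other scalings, which put it at -0.51 for total library size (adjusted p 0.148) and at -0.61 when the 20 most abundant genes were left out (adjusted p 0.0908), and without S351A replicate 2 (-0.88, adjusted p 0.0557).

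**Figure D3:**
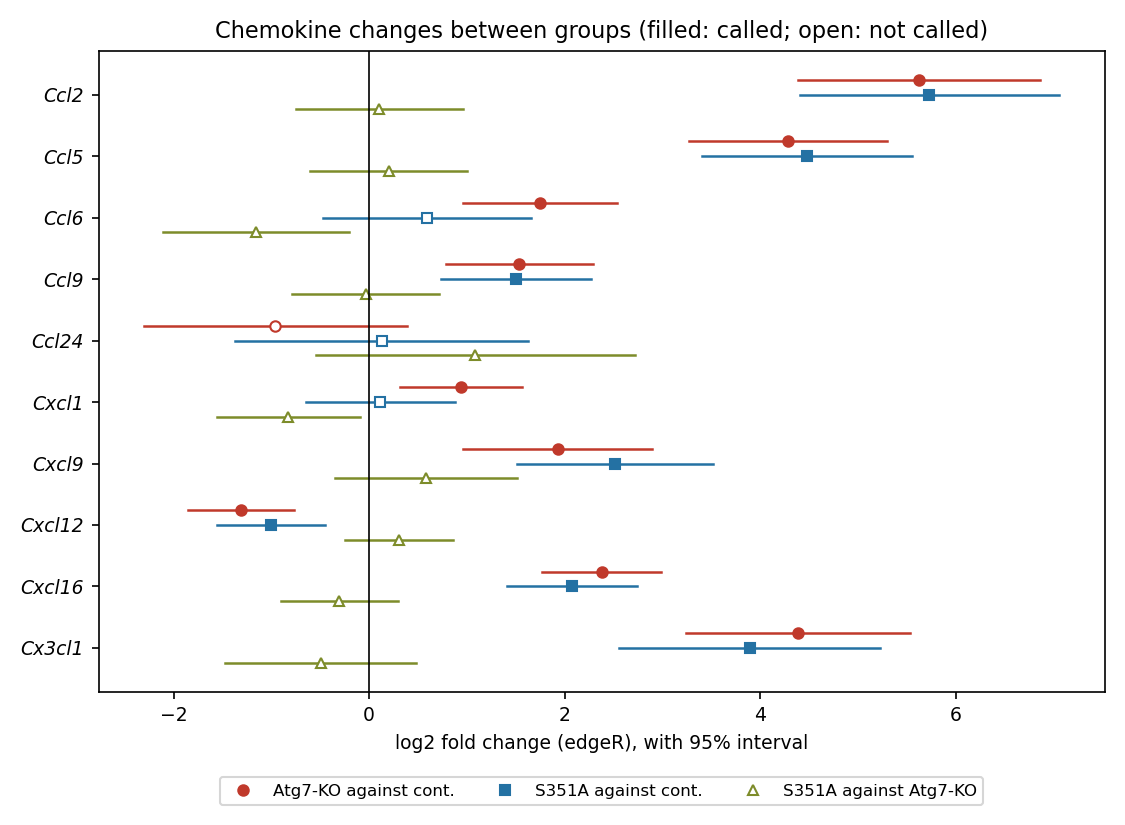
Log2 fold change of each chemokine from edgeR with its 95% interval, for Atg7-KO against cont. (circles), S351A against cont. (squares) and S351A against Atg7-KO (triangles). Filled symbols were called and open ones were not, and Ccl24 is from a fit with no filter. All triangles are open, and Cxcl12 has the only filled symbols left of 0.

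The receptors of the 10 ligands followed several patterns. Cx3cr1 was at 3.81, 3.52 and 0.985 CPM in cont., at 91.4, 51.3 and 70.9 CPM in Atg7-KO and 85.0, 72.0 and 42.0 CPM in S351A. Every liver with Cre lay far above cont., and the log2 fold change was 5.09 in Atg7-KO and 4.98 in S351A against cont. (edgeR adjusted p 1.02e-05 and 3.13e-05). In the annotation Cx3cr1, and likewise Ccr9, overlaps several other genes, with which it may share reads. Both Cx3cl1 and its receptor were therefore called higher in both groups.

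Ccr2, the receptor of Ccl2, was at 1.91, 3.17 and 1.79 CPM in cont., at 21.6, 18.3 and 21.05 CPM in Atg7-KO and 10.3, 9.93 and 20.98 CPM in S351A. It rose in both groups with Cre (log2 fold changes 3.20 and 2.63, edgeR adjusted p 3.63e-05 and 7.07e-04). Cxcr4, the receptor of Cxcl12, was at 3.81, 1.76 and 0.896 CPM in cont., at 12.1, 10.1 and 11.9 CPM in Atg7-KO and 4.60, 7.45 and 6.17 CPM in S351A. It rose while its ligand fell, by 2.79 in Atg7-KO and 1.88 in S351A on the log2 scale (edgeR adjusted p 5.49e-04 and 0.0282).

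The receptors of the remaining ligands were sparse. Ccr1, the receptor shared by Ccl5, Ccl6 and Ccl9, had 0 counts in all cont. and S351A libraries and 8, 8 and 3 counts in Atg7-KO, where it was at 1.86, 2.87 and 1.37 CPM. Over the 3 libraries of a group together, 0 counts allow a level of up to 0.193 CPM in cont. and 1.21 CPM in S351A, by counting error only. Cxcr2, Cxcr3 and Cxcr6 did not pass the filter, with 21, 21 and 27 summed counts in Atg7-KO and 5, 5 and 10 in S351A. Ccr3 and the scavenger Ackr3 had at most 6 summed counts in any group. Of the 22 chemokine receptors reported here, only 5 were tested and the rest were too sparse. All 5 were under the filter's minimum in every cont. library and were tested only because of their levels in the groups with Cre, so their calls describe single genes and are not counted against the share over all genes. Xcr1 was also called higher in both groups and Ccr9 in S351A.

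**Figure D4:**
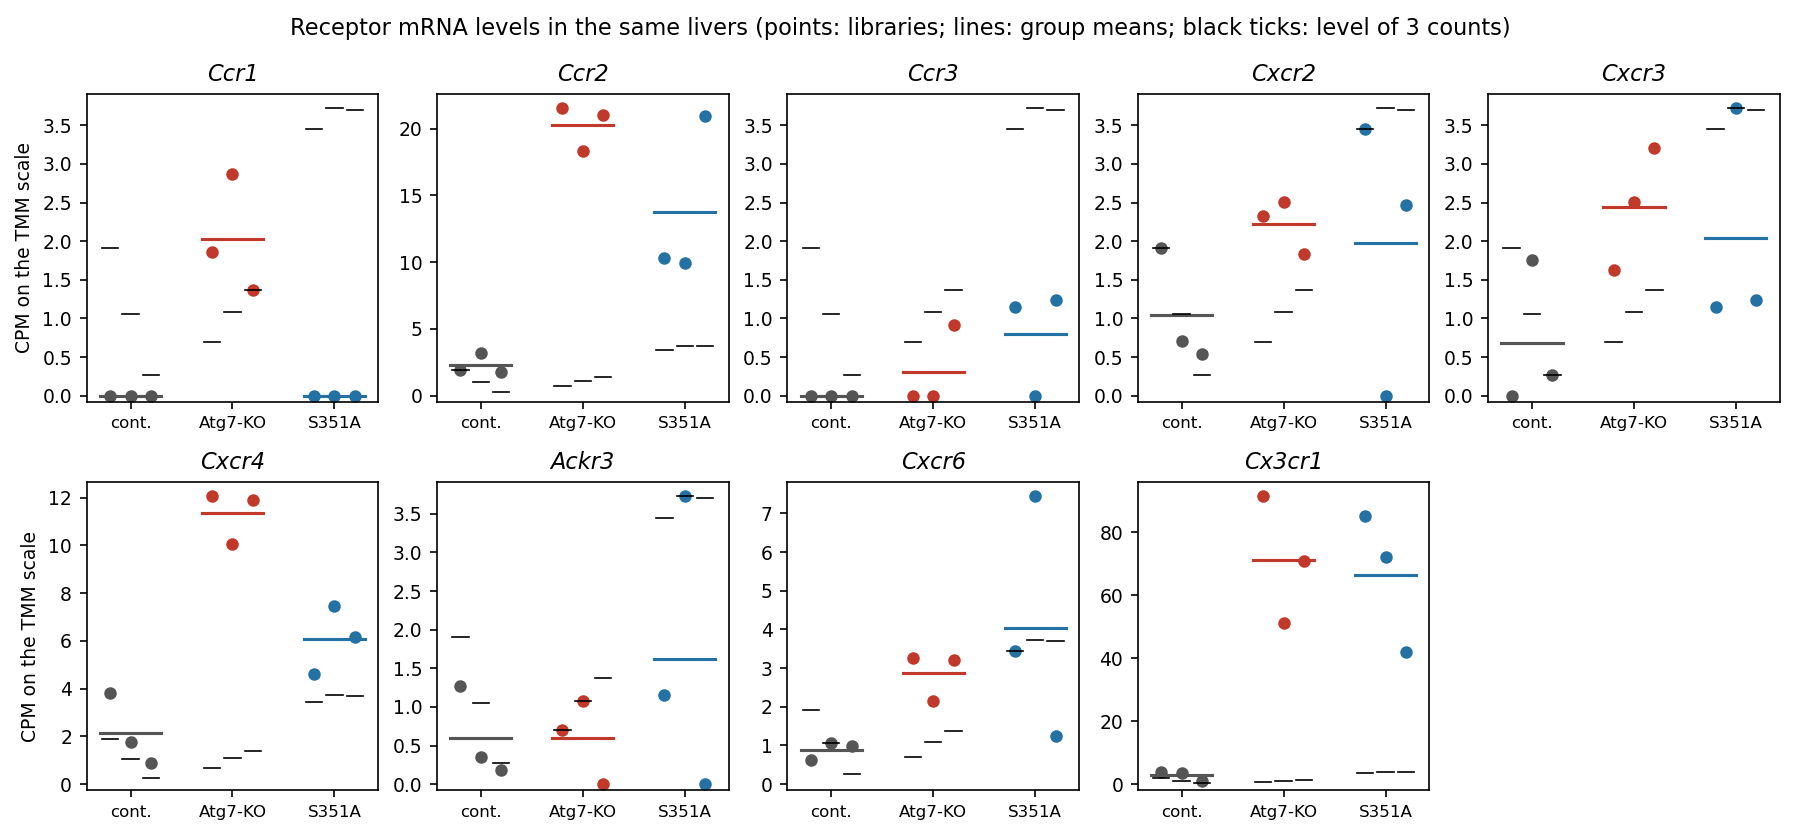
Level of 9 receptors of these chemokines (CPM on the TMM scale, linear axes that differ between panels) in the same 9 livers. Points are libraries, lines are group means and black ticks show the level of 3 counts. Cx3cr1, Ccr2 and Cxcr4 lie above cont. in every liver with Cre, and most other points are at or near the ticks.

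Of 30 further chemokine ligands, 8 were tested, and Cxcl10, Cxcl14 and Ccl19 were called higher and none lower in both groups with Cre against cont., where 19.9% and 15.6% of all genes were called higher. These 3 were under the filter's minimum in every cont. library and were tested only through the groups with Cre. Cxcl10, a neighbour of Cxcl9 and a ligand of the same receptor that overlaps Art3 on the opposite strand, was at 1.91, 2.82 and 3.94 CPM in cont., at 106, 101 and 90.1 CPM in Atg7-KO and 68.9, 128 and 114 CPM in S351A (log2 fold changes 4.91 and 4.97). Cxcl14 rose by 3.69 and 4.19 and Ccl19 by 2.44 and 1.84 on the log2 scale. Cxcl11, the third ligand of Cxcr3 and a polymorphic pseudogene in the annotation, was at 24.3 ± 7.65, 14.97 ± 2.81 and 17.8 ± 8.10 CPM and was not called (log2 fold change -0.65 in Atg7-KO, edgeR adjusted p 0.103). Ccl1, Ccl21c, Ccl26, Cxcl3 and Cxcl15 had no counts in any library.

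Of 8 proteases that cut chemokines or release them from membranes, 6 were tested, of which 4 were called higher in Atg7-KO and 1 lower, against 19.9% and 18.1% of all genes. Of the 4, Mmp2 and Mmp12 were under the filter's minimum in every cont. library. Adam10, a sheddase of Cxcl16 and Cx3cl1, rose from 21.7 ± 4.50 to 36.8 ± 5.45 CPM (log2 fold change 0.73, edgeR adjusted p 0.0209), and Adam17 was not called (0.33, adjusted p 0.203). Mmp12 rose from 0.0299 CPM, which is 1 count in the 3 cont. libraries, to 8.92 CPM. Mmp2 and Mmp14 rose by 2.52 and 1.58 on the log2 scale. Dpp4, which truncates Cxcl12 among others, fell from 87.6 ± 23.6 to 38.5 ± 1.32 CPM (log2 fold change -1.20, edgeR adjusted p 0.00129). In S351A against cont., Mmp2, Mmp12 and Mmp14 were called higher and Dpp4 lower (log2 fold change -1.02), a call lost with total library size (-0.52) and without the 20 most abundant genes (-0.62).

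Of 26 genes for cytokines, receptors, transcription factors and their inhibitors that act in the control of chemokine genes, 21 were tested. In Atg7-KO 11 of them were called higher and 1 lower, and in S351A against cont. 9 higher and none lower. The shares over all genes were 19.9% higher and 18.1% lower for Atg7-KO, and 15.6% and 13.0% for S351A. Tnf, Relb and Tnfaip3 were under the filter's minimum in every cont. library and were tested only through the groups with Cre. Among those with the largest changes, Relb, a subunit of NF-kB, rose by 3.00 and 2.72 in the 2 comparisons on the log2 scale, Tnf, a cytokine that activates NF-kB, by 2.57 and 3.17, Tnfaip3, which restrains NF-kB, by 2.17 and 2.46, and Irf8, an interferon-responsive factor of myeloid cells, by 2.01 and 1.64. Nfkb2, another subunit of NF-kB, was called higher in Atg7-KO (log2 fold change 1.51), and Nfkb1 and Rela were not called (-0.01 and 0.13). Nfkbia, Irf1 and Cebpb were not called either (0.27, -0.44 and -0.40). Il1r1, a receptor of interleukin-1, fell by 1.12 on the log2 scale in Atg7-KO (edgeR adjusted p 0.0449), a call lost with total library size and without the 20 most abundant genes.

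Markers of other cell types moved with these genes, and the shares of all genes called in each direction given above are the background for these lists too. Of 16 macrophage markers, 10 were called higher and 1, Timd4, lower in Atg7-KO, and 8 higher and 1, Mrc1, lower in S351A against cont., that of Mrc1 again lost under those scalings. Itgam, Trem2 and Gpnmb were under the filter's minimum in every cont. library, and Timd4 in every Atg7-KO library, so that each was tested through the groups where it was higher. The lipid-associated macrophage gene Trem2 rose from 0.831 to 15.6 CPM in Atg7-KO, and of genes that mark resident Kupffer cells Timd4 fell (log2 fold change -1.92, edgeR adjusted p 0.00814), while Clec4f, Vsig4 and Cd5l were not called (-0.16, 0.10 and -0.24). Of 9 ductular markers, 5 of which were under the filter's minimum in every cont. library, 8 were called higher in each group with Cre, and their sum was 89.8 to 175 CPM in cont. livers, 1029 to 1424 CPM in Atg7-KO and 931 to 1444 CPM in S351A. The largest part of that sum was Spp1, at means of 35.0, 733 and 601 CPM in cont., Atg7-KO and S351A, against 1.77, 12.6 and 16.3 CPM for Krt19. The sum of the 10 stellate cell and fibroblast markers was 295 to 599, 1337 to 1794 and 1211 to 1742 CPM in the same order. Of 10 hepatocyte markers, 7 were called lower and none higher in both groups, and under those scalings the calls of Alb in both groups and of Apoa1 and Ttr in S351A were lost. Of the B cell markers only 1 was tested, and it was not called in any comparison. In no list was any gene called between S351A and Atg7-KO, and the part of these cells in the chemokine levels was not tested.

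The genes whose levels followed each chemokine most closely over the 9 libraries differed between chemokines. The measure was Pearson's r of log2 CPM, given as a description, since all libraries share the difference between cont. and the livers with Cre. For Ccl2 the closest were Nid1 (r = 0.994), Cybb and Cenpe, for Cx3cl1 Cpxm1 (0.995), C1qb and Cap1, and for Cxcl16 Enah (0.993), Fxyd5 and Wisp1. For Ccl9 they were Csf2rb (0.993), Car2 and Anxa6, and for Ccl5 Cmpk2 (0.988), Rnaset2b and Mmp7. For Cxcl9 they were H2-M2 (0.985), AI504432 and Gbp7, for Ccl6 G530011O06Rik (0.970), Ppp1cc and Hexa, and for Cxcl1 Ybx3 (0.958), Slc25a27 and Ptpn6. For Cxcl12, whose levels ran the other way, they were Gopc (0.986), Kctd15 and Mup3. Cx3cl1 and C1qb, a complement gene of macrophages, had an r of 0.991. Among the chemokines themselves, r was 0.983 between Ccl2 and Cxcl16 and 0.504 between Ccl2 and Cxcl1.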

How the data were processed

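Poly(A) RNA of 9 livers was sequenced by the authors as single-end reads, mapped to mm10 with STAR after trimming with Trim Galore, and quantified with RSEM, according to the submitters' processing notes and the study's methods. Tool versions, annotation and strand setting are not given in the sources used here. The deposited values are expected counts (estimated reads per gene, not scaled between libraries). Between 4.40% and 7.75% of the values in a library were not whole, and all were rounded. Libraries were grouped by their titles, each from a separate mouse.

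Counts were tested with edgeR 4.0.16 in R 4.3.3. Genes were kept by filterByExpr (minimum count 10, minimum total 15), libraries scaled by TMM, and the 9 libraries were fitted in 1 quasi-likelihood model of the 3 groups. P-values were adjusted by the Benjamini-Hochberg method over all 11199 genes tested, and a gene was called at an adjusted p under 0.05 and a fold change over 1.5. SE were taken from the F statistic and 95% intervals from the test's degrees of freedom. Log2 CPM for correlations used a prior count of 2. Exon lengths were unions of GENCODE M21 exons. The procedure was tested on simulated data. The text names the 10 chemokines, their receptors, up to 5 called genes of each other list and the 3 genes closest in pattern to each chemokine; further genes were chosen after their values were seen. The chemokines and lists were chosen with earlier results of these data known. One listed gene is not reported here. Alternatives were other scalings, no filter, a strict filter, DESeq2 1.42.0, limma-voom (limma 3.58.1), the 6 compared libraries alone, replicate number or sex as a covariate, thinned libraries, no minimum fold change and leaving out each library.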

Additional observations from a re-analysis of the deposited data

How the results depend on the processing

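Over the single chemokines, comparisons and alternatives, 522 results kept their direction and their side of the threshold, 5 lost a call and 11 changed sign, the latter all in changes that were not called. With total library size, which put the median over all genes at 0.51 for Atg7-KO and 0.46 for S351A against cont., the median log2 fold change of the chemokines was 2.45 and 2.56, and without the 20 most abundant genes it was 2.36 in Atg7-KO. Under both scalings 0 chemokines were called lower in S351A against cont. With at least 10 counts in every library only 4 chemokines could be tested, and 3 were called higher in Atg7-KO and 3 in S351A against cont. With thinned libraries 7 chemokines were tested (not Ccl6 and Cx3cl1), of which 6 rose and 1 fell in Atg7-KO and 5 rose and 1 fell in S351A against cont. In a fit of the 6 compared libraries alone, 7 were tested in S351A against cont., again not Ccl6 and Cx3cl1. Leaving out 1 library gave 7 to 8 called higher and 1 lower in Atg7-KO, 6 higher and 0 to 1 lower in S351A against cont. (0 without S351A replicate 2), and 0 in S351A against Atg7-KO. The medians then ranged from 1.80 to 2.51 (without cont. replicate 2), from 1.76 to 2.34 and from -0.19 to 0.02. In S351A against Atg7-KO, the log2 fold changes then ranged from -0.18 to 0.42 for Ccl2 (-0.0083 and -0.18 without S351A replicates 1 and 2, and -0.26 with thinned libraries), from -0.045 to 0.57 for Ccl5 (-0.010 and -0.045 without S351A replicates 2 and 3), from -0.19 to 0.067 for Ccl9 (0.019 without Atg7-KO replicate 3, 0.067 and 0.0061 without S351A replicates 1 and 3) and from -0.064 (without S351A replicate 2) to 0.85 for Cxcl9. In S351A against cont. that of Cxcl1 ranged from -0.12 (without cont. replicate 1; -0.065 without S351A replicate 3) to 0.32. The causes were not tested. Of the other listed genes with Atg7, 63 were called in Atg7-KO and 56 in S351A against cont., and 6 and 6 of these calls were lost with total library size and 6 and 5 without the 20 most abundant genes, all of them lower calls, while size factors by RLE lost 0.

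Same-numbered libraries of different groups deviated together in part, with r from -0.0415 to 0.306, over 0.1 in 5 of 9 pairs. Libraries with different numbers had r from -0.265 to 0.212, and 6 of 9 libraries were closest to their own number. Whether the numbers mark pairs was not tested, and the main fit did not take them as pairs. With the replicate block, 8 chemokines were called higher in Atg7-KO and 1 lower, 6 and 1 in S351A against cont. and 0 between S351A and Atg7-KO, with 2297 and 2016 genes of all called up and down in Atg7-KO. Over all genes, calls between S351A and Atg7-KO were 61 higher and 37 lower with no filter and 26 and 22 with DESeq2. The shallow S351A libraries limit what can be said of Ccl6, Ccl24, Cx3cl1 and most receptors.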
